A study of Homo sapiens with 4 samples.

Results

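The machinery that makes and removes the poly(A) tail was examined as 37 genes, of which 19 belong to cleavage and polyadenylation and 18 to deadenylation. The members were listed by gene symbol, and all 37 had a row in the deposited table and were among the 22186 tested genes. RNA was measured in nuclear and cytoplasmic fractions of wildtype HEK293T, an established cell line from human embryonic kidney made to express SV40 large T antigen. All cells were formaldehyde crosslinked, and each fraction had 2 biological replicates, giving 4 libraries. Each library was built from 400 ng of RNA after ribosomal RNA depletion, with a kit that keeps the strand, and was read for 100 nt from both ends. The comparison asks how the RNA of each gene was divided between the fractions. Every library began with the same mass of RNA, so a value is relative to the other RNA of its fraction. More RNA of a gene per cell and less RNA in its whole fraction therefore cannot be told apart.

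A poly(A) tail is added in the nucleus once the pre-mRNA has been cut. The cleavage and polyadenylation specificity factor (CPSF) reads the poly(A) signal and makes the cut, the cleavage stimulation factor (CstF) and the cleavage factors Im and IIm read flanking sequence, and a poly(A) polymerase extends the new end. Tails are shortened mainly by the CCR4-NOT complex and by PAN2-PAN3, with PARN as a further poly(A) nuclease, and TOB and BTG proteins bring the CAF1 subunits of CCR4-NOT to their targets.

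The hexamer that CPSF reads was looked for in the members themselves. Of the 37 members, 26 (70.3%) had AATAAA and 7 (18.9%) had only ATTAAA within the last 50 bases of the canonical transcript, searched on the sense strand. Among 20046 protein-coding genes of GENCODE release 44 the shares were 63.4% and 13.9%, and a match is a description of these letters and not of a used site. Neither hexamer lay in that window for CPSF1, FIP1L1, SYMPK and CNOT9. The 30-base windows below end the canonical transcripts of 6 genes on which the results turn, or lie within its last bases, read 5′ to 3′ from hg38 with the hexamer in capitals. They are CSTF2 with its intronless copy CSTF2T, the opposite pair NUDT21 and CSTF3, the main poly(A) polymerase PAPOLA, and CNOT4, the member with the lowest fold change.
CSTF2, chrX:100841491-100841520, plus strand: aagatgaAATAAAaacagaaatcaaatgaa
CSTF2T, chr10:51695486-51695515, minus strand: tgcagaaAATAAAgatacaattaaggctga
CSTF3, chr11:33084584-33084613, minus strand: tcctttaaaaAATAAAaggattcagaaaca
NUDT21, chr16:56429133-56429162, minus strand: tcatttcAATAAAaaatatttgaaagagaa
PAPOLA, chr14:96567087-96567116, plus strand: acacAATAAAaaaaaaacagcacaatctca
CNOT4, chr7:135361796-135361825, minus strand: cttaAATAAAacagaaaacttgatggtgac
All 6 carried AATAAA, but a window could be shown only where a hexamer was found, so nothing about direction is read from them.

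The counts recovered for the 4 libraries added up to 15478058 to 22665211 per library. With estimates for the genes whose counts could not be recovered, the totals were 21390717 to 24520845. Values below are normalized counts, meaning the count of a gene in a library divided by that library's size factor. Totals divided by the size factor were 18286038 and 17987333 in the nuclear libraries and 28335626 and 29073137 in the cytoplasmic ones. An equal normalized count is therefore a smaller share of the counts in a cytoplasmic library. The libraries of a fraction are called A and B because their replicate numbers are not known. NEAT1, a nuclear noncoding RNA used to check the fractions, had 5613 and 4627 normalized counts in the nuclear libraries and 606 and 596 in the cytoplasmic ones. Calls came from limma's voom fit over all tested genes, with an adjusted p of at most 0.01 as the threshold. Of these genes, 31.9% were called higher in the cytoplasmic fraction and 35.8% higher in the nuclear fraction, so that 67.6% were called in all. With the libraries scaled to equal totals, every log2 fold change moved down by about 0.66 and the shares became 19.7% and 49.5%. The choice of scale therefore sets the direction of genes near 0, and such genes are named as they occur.

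Both gene groups were split between the fractions. Of the 37 members, 21 (56.8%) were called higher in the cytoplasmic fraction and 14 (37.8%) higher in the nuclear fraction, and 2, PAPOLG and CNOT3, were not called. Among 15002 tested protein-coding genes the shares were 39.6% and 33.7%. With equal totals 12 members were called cytoplasmic and 20 nuclear, beside 25.2% and 49.2% of protein-coding genes. The log2 fold change of cytoplasmic over nuclear ran from -2.72 for CNOT4 to 2.47 for CLP1. In all 37 members both libraries of one fraction lay above both libraries of the other, which was also so for 87.5% of all tested genes. The libraries of a fraction differed little in these genes. The median absolute log2 difference of A and B was 0.06 between nuclear and 0.08 between cytoplasmic libraries, and the largest was 0.44, for BTG2 in the cytoplasmic fraction.

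**Figure D1:**
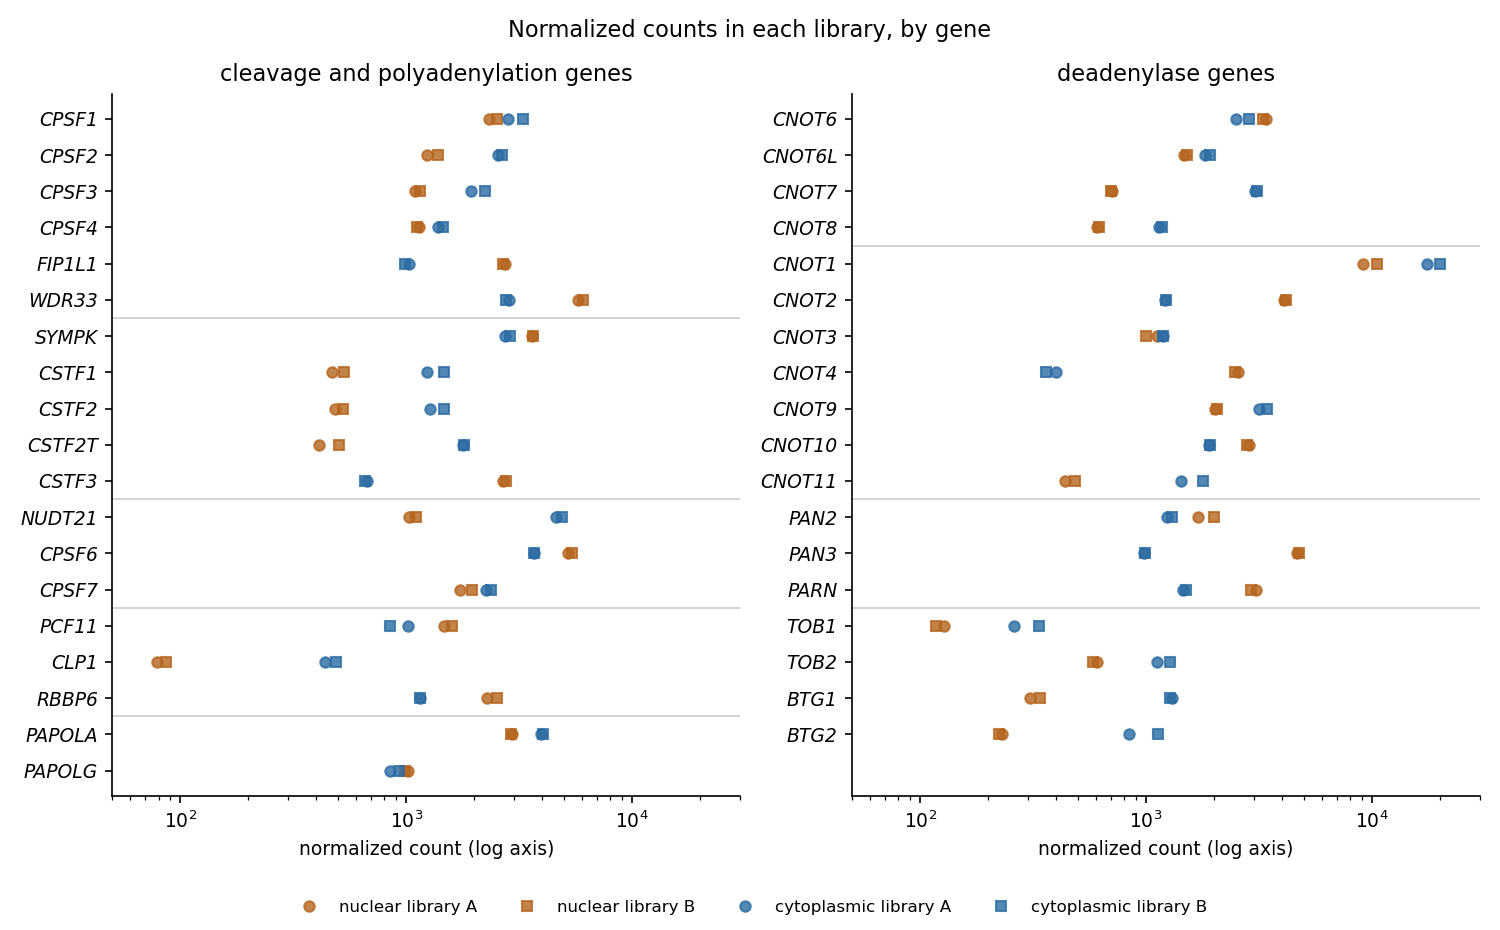
Normalized counts (log axis) of the 37 genes in nuclear libraries A and B (brown) and cytoplasmic libraries A and B (blue), in role order from top to bottom, with grey lines between roles. Points of one colour lie close together in every row, and the colours separate by up to 6.60-fold, the fitted fold for CNOT4.

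Of the 6 genes of CPSF and signal recognition, 4 were called cytoplasmic and 2 nuclear. CPSF2, the partner of the nuclease, had 1231 and 1377 normalized counts in the nuclear libraries and 2548 and 2658 in the cytoplasmic ones. CPSF3, the endonuclease that makes the cut, had 1091 and 1155 in the nuclear libraries against 1924 and 2224 in the cytoplasmic ones. Both genes were higher in both cytoplasmic libraries. The log2 fold change was 1.00 ± 0.10 (SE, adjusted p = 4.44e-10) for CPSF2 and 0.88 ± 0.11 (adjusted p = 1.04e-08) for CPSF3, although CPSF3 at 0.22 was not called with equal totals.

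FIP1L1, which tethers the poly(A) polymerase to CPSF, had 2734 and 2675 normalized counts in the nuclear libraries and 1028 and 985 in the cytoplasmic ones. WDR33, a subunit that contacts the AAUAAA signal, had 5779 and 6033 in the nuclear libraries and 2835 and 2754 in the cytoplasmic ones. Both were lower in both cytoplasmic libraries, opposite to CPSF2 and CPSF3. The log2 fold change was -1.42 ± 0.11 (SE, adjusted p = 1.73e-13) for FIP1L1 and -1.08 ± 0.10 (adjusted p = 3.01e-11) for WDR33. CPSF1, the large scaffold subunit, and CPSF4, a zinc finger subunit that also contacts the signal, lay near 0. CPSF1 had a log2 fold change of 0.33 ± 0.11 (SE) that turned to -0.34 with equal totals. CPSF4 was likewise at 0.33 ± 0.11 and turned to -0.33. CPSF4 lies wholly within PTCD1, a gene on the opposite strand.

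Of the 5 symplekin and CstF genes, 3 were called cytoplasmic and 2 nuclear. CSTF3, the CstF subunit that holds the complex together, had 2679 and 2769 normalized counts in the nuclear libraries and 670 and 653 in the cytoplasmic ones. Its partner CSTF1 had 471 and 527 in the nuclear libraries against 1237 and 1463 in the cytoplasmic ones. CSTF2, the subunit that binds the GU-rich element downstream of the cut, had 481 and 523 against 1275 and 1466. CSTF3 was thus lower, and CSTF1 and CSTF2 higher, in both cytoplasmic libraries. The log2 fold changes were -2.04 ± 0.11 for CSTF3 (SE, adjusted p = 8.16e-17), 1.43 ± 0.12 for CSTF1 (adjusted p = 1.99e-12) and 1.45 ± 0.12 for CSTF2 (adjusted p = 1.01e-12).

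CSTF2T, an intronless copy of CSTF2 that encodes a closely related protein, had 409 and 501 normalized counts in the nuclear libraries and 1786 and 1800 in the cytoplasmic ones. The cytoplasmic libraries were the higher ones, with a log2 fold change of 1.99 ± 0.12 (SE, adjusted p = 5.73e-16). It lies wholly within PRKG1, on the opposite strand. Reads that fit CSTF2T and CSTF2 equally could be lost from either gene, and how such reads were treated is not given in the sources used here. SYMPK, the scaffold that joins CPSF and CstF, had 3605 and 3640 in the nuclear libraries and 2734 and 2865 in the cytoplasmic ones. It was modestly lower in both cytoplasmic libraries, at -0.37 ± 0.10 (SE, adjusted p = 0.00139).

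Of the 3 genes of cleavage factor Im, 2 were called cytoplasmic and 1 nuclear. NUDT21, which binds UGUA elements upstream of the poly(A) site, had 1026 and 1106 normalized counts in the nuclear libraries and 4578 and 4890.0 in the cytoplasmic ones. These cytoplasmic values were more than 4 times the nuclear ones, and the log2 fold change was 2.15 ± 0.10 (SE, adjusted p = 4.07e-18). CPSF6, a large subunit of the factor, had 5214 and 5437 in the nuclear libraries and 3693 and 3685 in the cytoplasmic ones. It was lower in both cytoplasmic libraries, with a log2 fold change of -0.53 ± 0.10 (SE, adjusted p = 1.91e-05). CPSF7, the alternative large subunit, was called cytoplasmic with NUDT21, at 0.34 ± 0.10 (SE, adjusted p = 0.00454). With equal totals CPSF7 turned to -0.33 and was called nuclear.

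Cleavage factor IIm is formed by PCF11 and CLP1. CLP1, an RNA kinase, had 79.1 and 86.6 normalized counts in the nuclear libraries and 435 and 488 in the cytoplasmic ones. It had the highest log2 fold change of all 37 genes, 2.47 ± 0.17 (SE, adjusted p = 3.36e-14). In GENCODE release 44 another gene on the same strand covers 33.7% of the CLP1 span and 11.9% of its exonic bases, and the authors removed stretches that genes share in their own annotation before counting. PCF11, which also takes part in ending transcription, had 1466 and 1600.2 in the nuclear libraries and 1020.1 and 848 in the cytoplasmic ones. PCF11 was lower in both cytoplasmic libraries, at -0.72 ± 0.11 (SE, adjusted p = 1.41e-06), and 10.6% of its exonic bases lie in another gene of the same strand. RBBP6, a ubiquitin ligase that activates the cleavage complex, had 2276 and 2515 in the nuclear libraries and 1144 and 1153 in the cytoplasmic ones. Its log2 fold change was -1.06 ± 0.11 (SE, adjusted p = 1.88e-10), on the nuclear side with PCF11.

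Of the poly(A) polymerases, 1 was called. PAPOLA, the main nuclear poly(A) polymerase, had 2934 and 2893 normalized counts in the nuclear libraries and 3944 and 4021 in the cytoplasmic ones. It was called higher in the cytoplasmic fraction, at 0.45 ± 0.10 (SE, adjusted p = 0.000165), but turned to -0.21 and was not called with equal totals. PAPOLG, a related polymerase, had 1016 and 982 in the nuclear libraries and 848 and 924 in the cytoplasmic ones. These values did not overlap but were close, and PAPOLG was not called at -0.18 ± 0.11 (SE, adjusted p = 0.146), with a 95% interval from -0.40 to 0.05. With equal totals PAPOLG was called nuclear, at -0.84.

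Of the 4 catalytic subunits of CCR4-NOT, the CAF1 nucleases were on the cytoplasmic side. CNOT7 had 707 and 701 normalized counts in the nuclear libraries and 3045 and 3092 in the cytoplasmic ones. CNOT8, its close relative, had 606 and 619 in the nuclear libraries and 1139 and 1181 in the cytoplasmic ones. Both were higher in both cytoplasmic libraries. The log2 fold change was 2.12 ± 0.10 (SE, adjusted p = 8.62e-18) for CNOT7 and 0.92 ± 0.11 (adjusted p = 8.03e-09) for CNOT8, which at 0.26 was not called with equal totals. CNOT6 and CNOT6L, the CCR4 nucleases, lay near 0 on opposite sides. CNOT6 had 3406 and 3296 normalized counts in the nuclear libraries and 2512 and 2853 in the cytoplasmic ones, with a log2 fold change of -0.32 ± 0.10 (SE). CNOT6L had 1469.8 and 1519 in the nuclear libraries and 1817 and 1922 in the cytoplasmic ones, at 0.32 ± 0.10 (SE), which turned to -0.34 with equal totals.

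The other CCR4-NOT subunits covered nearly the whole range of the 37 genes. CNOT1, the scaffold on which the complex assembles, had 9116 and 10575 normalized counts in the nuclear libraries and 17610.1 and 20023 in the cytoplasmic ones. It was higher in both cytoplasmic libraries, at 0.94 ± 0.10 (SE, adjusted p = 1.61e-09), and at 0.27 was not called with equal totals. The counts of CNOT1 were the least firmly solved of the 37 genes, since the next set of whole counts missed the deposited fold change by 6.61e-09. CNOT11, which docks on the N-terminal part of CNOT1 with CNOT10, had 439 and 485 in the nuclear libraries and 1432 and 1786 in the cytoplasmic ones. CNOT10 itself had 2856 and 2794 in the nuclear libraries and 1902 and 1923 in the cytoplasmic ones. These partners lay on opposite sides, with log2 fold changes of 1.79 ± 0.12 for CNOT11 (SE, adjusted p = 1.77e-14) and -0.56 ± 0.10 for CNOT10 (adjusted p = 1.06e-05).

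CNOT2 and CNOT3 form the NOT module. CNOT2 had 4072 and 4142 normalized counts in the nuclear libraries and 1212 and 1226 in the cytoplasmic ones. It was lower in both cytoplasmic libraries by a wide margin, at -1.75 ± 0.10 (SE, adjusted p = 6.22e-16). CNOT3 had 1119 and 1003 in the nuclear libraries and 1182 and 1182 in the cytoplasmic ones. CNOT3 was not called at 0.16 ± 0.11 (SE, adjusted p = 0.186), with a 95% interval from -0.06 to 0.38, and was called nuclear at -0.51 with equal totals. CNOT4, a ubiquitin ligase loosely held by the complex in human cells, had 2541 and 2471 in the nuclear libraries and 399 and 359 in the cytoplasmic ones. It had the lowest log2 fold change of all members, -2.72 ± 0.12 (SE, adjusted p = 8.45e-19). CNOT9, which binds the silencing domain of GW182 proteins, had 2018 and 2070.3 in the nuclear libraries and 3151 and 3423 in the cytoplasmic ones. It was on the cytoplasmic side at 0.68 ± 0.10 (SE, adjusted p = 4.78e-07), and at 0.02 was not called with equal totals.

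PAN2, PAN3 and PARN were all on the nuclear side, as were 33.7% of tested protein-coding genes. PAN3, the subunit that brings PAN2 to tails bound by cytoplasmic poly(A) binding protein, had 4636 and 4756 normalized counts in the nuclear libraries and 980.2 and 987 in the cytoplasmic ones. PAN2, the nuclease, had 1704 and 1998 in the nuclear libraries and 1234 and 1307 in the cytoplasmic ones. PARN, a poly(A) nuclease that also trims the ends of small noncoding RNAs, had 3060 and 2905 in the nuclear libraries and 1452 and 1507 in the cytoplasmic ones. All 3 genes were lower in both cytoplasmic libraries. The log2 fold changes were -2.25 ± 0.10 for PAN3 (SE, adjusted p = 1.96e-18), -0.54 ± 0.11 for PAN2 (adjusted p = 5.41e-05) and -1.01 ± 0.10 for PARN (adjusted p = 2.54e-10). The subunits of the PAN2-PAN3 nuclease differed in size of change but not in direction. PAN3 and PARN span 157 and 197 kb, and 69.8% of tested protein-coding genes over 80 kb were called nuclear.

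All 4 adaptors were on the cytoplasmic side, and they remained so with equal totals. BTG1 and BTG2 are small antiproliferative proteins that bind CNOT7 and CNOT8. BTG1 had 306 and 339 normalized counts in the nuclear libraries and 1302 and 1279 in the cytoplasmic ones. BTG2 had 231 and 224 in the nuclear libraries and 836 and 1134 in the cytoplasmic ones. Both had cytoplasmic values well above the nuclear ones, with log2 fold changes of 2.00 ± 0.12 for BTG1 (SE, adjusted p = 8.40e-16) and 2.09 ± 0.14 for BTG2 (adjusted p = 2.43e-14). Of the exonic bases of BTG1, 54.3% lie in another gene of the same strand, a noncoding RNA. TOB1, which links CCR4-NOT to cytoplasmic poly(A) binding protein, had 128 and 117 in the nuclear libraries and 259 and 334 in the cytoplasmic ones. TOB2 had 609 and 583 in the nuclear libraries and 1116 and 1280.1 in the cytoplasmic ones. The TOB genes were also higher in both cytoplasmic libraries, at 1.26 ± 0.17 for TOB1 (SE, adjusted p = 9.04e-08) and 1.00 ± 0.11 for TOB2 (adjusted p = 2.46e-09).

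**Figure D2:**
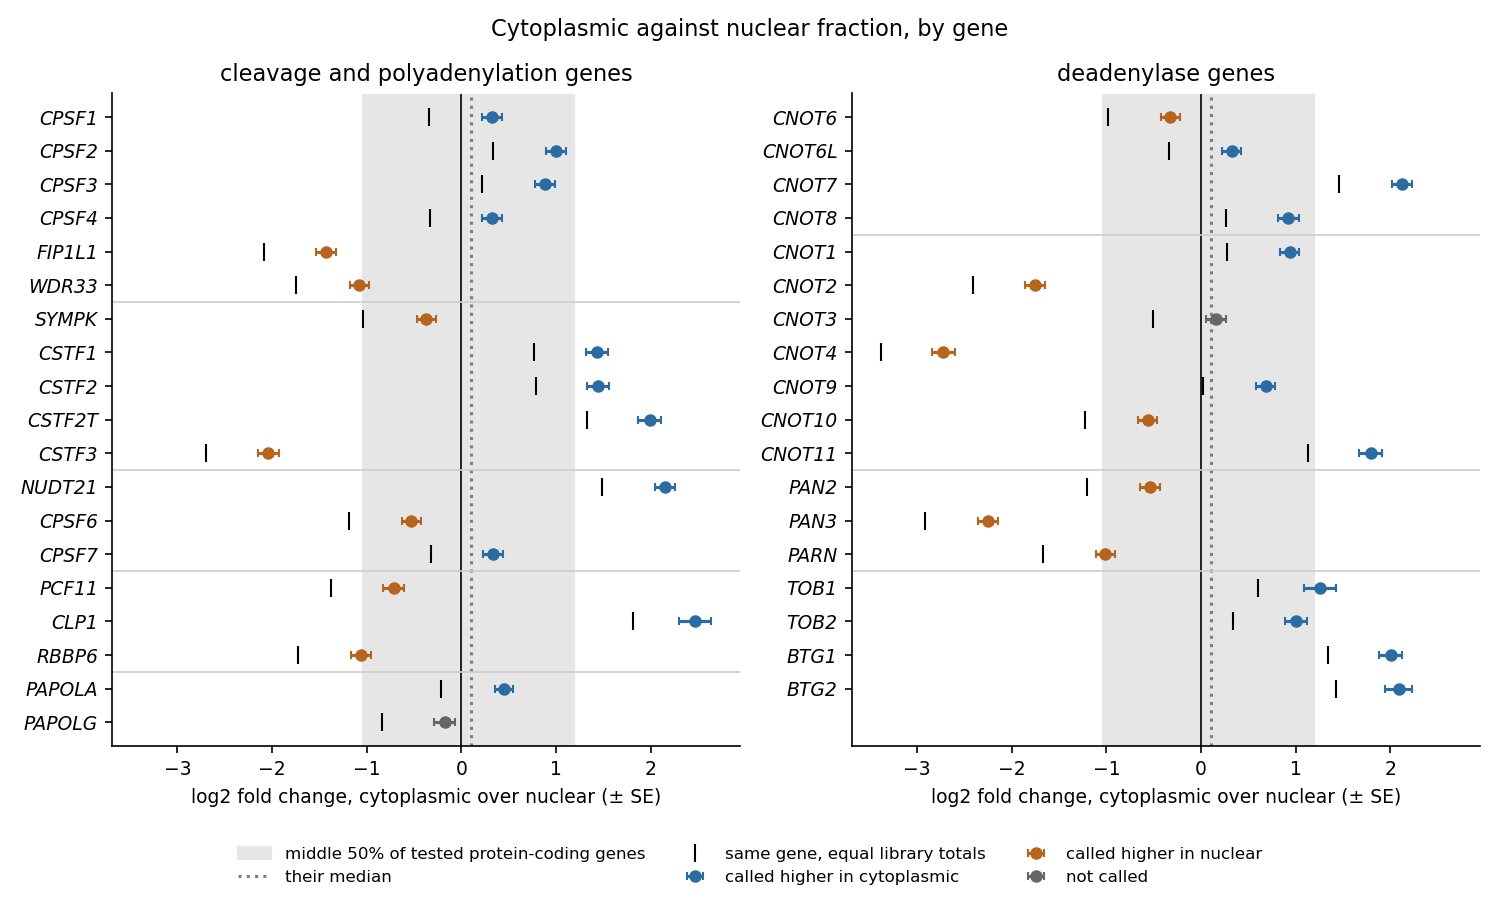
Log2 fold change of cytoplasmic over nuclear with its SE for each of the 37 genes, by role, coloured by call, beside the middle 50% (grey) and the median (dotted line) of tested protein-coding genes. Black ticks give the same gene with equal library totals, which moves all genes left by about 0.66 and takes CPSF1, CPSF4, CPSF7, PAPOLA, CNOT6L and CNOT3 from above to below 0.

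Calls of 6 members were lost when a library was left out, in fits that keep only 1 library of a fraction and are less precise. A lost call there does not by itself mean that the value rested on the library left out. The log2 fold change stayed at 0.288 to 0.371 for CPSF4 and 0.283 to 0.363 for CNOT6L, beside 0.329 and 0.323 with all libraries. SYMPK was not called without nuclear library B (adjusted p = 0.0119) or without cytoplasmic library A (0.0222). CNOT6 was not called without cytoplasmic library A (adjusted p = 0.123), nuclear library A (0.0425) or nuclear library B (0.0168). CPSF1 lost its call without nuclear library A (adjusted p = 0.0714) or cytoplasmic library B (0.148). CPSF7 lost its call without nuclear library A (adjusted p = 0.0919), cytoplasmic library A (0.0136) or cytoplasmic library B (0.0419). CPSF4 and CNOT6L lost theirs without any 1 of the libraries, with an adjusted p of 0.0182 to 0.0647 for CPSF4 and 0.0175 to 0.0626 for CNOT6L. With all libraries the adjusted p was 0.00637 for CPSF1, 0.00592 for CPSF4, 0.00454 for CPSF7, 0.00558 for CNOT6 and 0.00589 for CNOT6L. Leaving out a library ended no call among the other 29 called members.

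The cleavage and polyadenylation genes and the deadenylase genes were alike as groups. Of the 19 cleavage and polyadenylation genes, 11 were called cytoplasmic and 7 nuclear, against 10 and 7 of the 18 deadenylase genes. With equal totals the counts were 6 and 11 against 6 and 9. The median log2 fold change was 0.33 for cleavage and polyadenylation and 0.50 for deadenylation, beside 0.10 for tested protein-coding genes and -0.15 for all tested genes. The difference of the medians, deadenylation minus cleavage, was 0.17, and over the 4 pairings of 1 nuclear with 1 cytoplasmic library it was 0.12 to 0.21. That sign rested on the adaptors. Without TOB1, TOB2, BTG1 and BTG2 the deadenylase median was -0.08 and the difference was -0.41, and with means in place of medians the difference was -0.06. The spread inside each group was far wider than the gap between them, from -2.04 for CSTF3 to 2.47 for CLP1 in the first and from -2.72 for CNOT4 to 2.12 for CNOT7 in the second.

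Related genes with similar products were compared in 7 pairs, where a common change of scale cancels. The gene with the higher value is named first, and the 95% interval is a normal one that takes both standard errors as independent. CNOT7 exceeded CNOT8 by 1.20 on the log2 scale (95% interval 0.90 to 1.50), the largest difference of the 7. The ratio of CNOT7 to CNOT8 counts was 1.17 and 1.13 in the nuclear libraries and 2.67 and 2.62 in the cytoplasmic ones. CPSF7 exceeded CPSF6 by 0.87 (0.59 to 1.15). The ratio of CPSF7 to CPSF6 counts was 0.332 and 0.358 in the nuclear libraries and 0.613 and 0.644 in the cytoplasmic ones. The balance of RNA counts of these genes, with reads over introns included, thus differed between the fractions. Protein was not measured. CNOT6L exceeded CNOT6 by 0.65 (0.36 to 0.93). The polymerase PAPOLA exceeded PAPOLG by 0.63 (0.34 to 0.92). CSTF2T exceeded its intron-bearing relative CSTF2 by 0.54 (0.22 to 0.86). For the adaptors the intervals included 0, at 0.26 (-0.15 to 0.66) for TOB1 over TOB2 and 0.09 (-0.28 to 0.45) for BTG2 over BTG1. These intervals still allow a difference of up to 0.66 and 0.45.

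**Figure D3:**
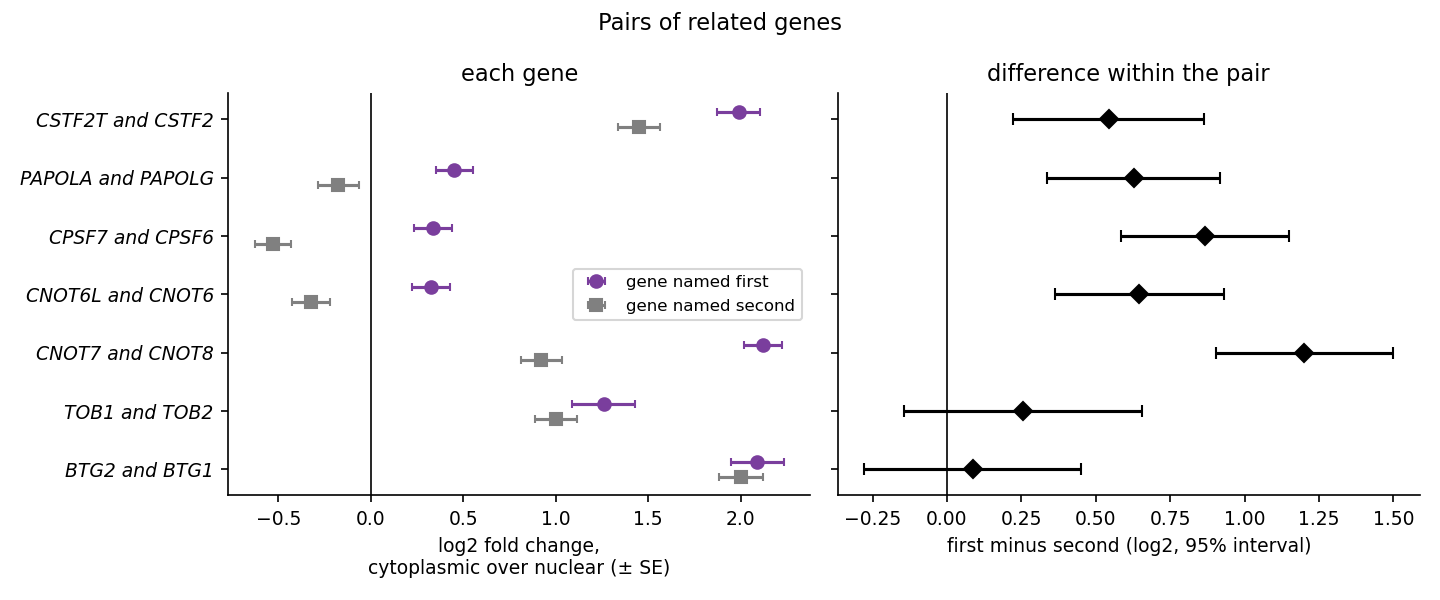
Left, log2 fold change of cytoplasmic over nuclear with its SE for both genes of 7 pairs. Right, the difference within each pair with its 95% interval, which lies above 0 for 5 pairs and includes 0 for TOB1 with TOB2 and BTG2 with BTG1. With equal library totals the differences are the same to within 0.01, while PAPOLA, CPSF7 and CNOT6L themselves fall below 0.

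Reads over introns were counted by the authors together with those over exons, so the structure of each gene was set beside its value. The span of a gene was taken from its first to its last annotated base in GENCODE release 44. All 7 members under 15 kb were called cytoplasmic, as were 68.7% of tested protein-coding genes of such span. They were CSTF1, CSTF2T, CLP1, TOB1, TOB2, BTG1 and BTG2, with a median log2 fold change of 1.99, beside 1.47 for those 4016 genes. Of the 11 members over 80 kb, 9 were called nuclear, with a median of -1.08, beside 69.8% called nuclear and a median of -1.14 among 4061 tested protein-coding genes. The exceptions were CNOT1, with 110 kb and 53 exon blocks, and CNOT6L, with 106 kb. With equal totals CNOT1 was not called, at 0.27, and CNOT6L was called nuclear, at -0.34. Spearman's rho between span and log2 fold change was -0.73 over the 37 members and -0.61 over 14996 tested protein-coding genes, as a description across genes that share libraries and are not replicates.

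Each member was then set against the median of tested protein-coding genes in the same decile of span. The 19 cleavage and polyadenylation genes had a median difference of -0.17 from it, with 7 above and 12 below. For the 18 deadenylase genes it was 0.07, with 10 above and 8 below. CNOT1 stood furthest above, by 1.85, followed by CLP1 at 1.53, NUDT21 at 1.52, CNOT7 at 1.50, CPSF2 at 1.20 and CNOT11 at 1.17. CNOT4 stood furthest below, by -1.81, followed by CSTF3 at -1.52, RBBP6 at -1.42, PAN3 at -1.34 and PAN2 at -1.17. PARN, although called nuclear, lay 0.94 above the median for its span of 197 kb. PAN2 spans 17.8 kb and was called nuclear. Of the 19 members of 15 to 80 kb, 5 were called nuclear on the scale of the size factors, beside 26.6% of 6919 tested protein-coding genes of that span. With equal totals CPSF1, CPSF4, CPSF7, CNOT3 and PAPOLG, also of that span, were called nuclear as well. CSTF2T, a gene of 1 exon block and 4.11 kb, lay within 0.02 of the median for its span and BTG1 within 0.01, whereas CSTF2, with 16 blocks over 21.1 kb, lay 0.82 above.

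**Figure D4:**
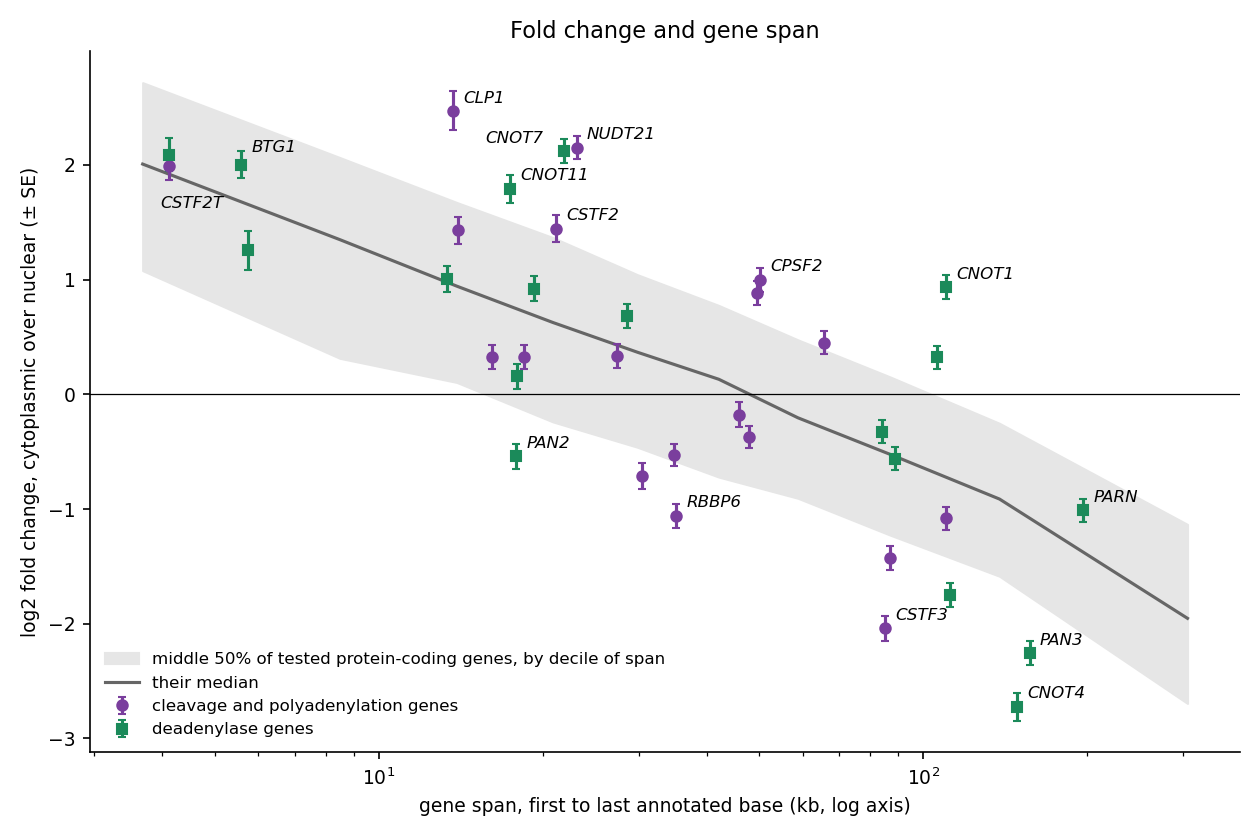
Log2 fold change of cytoplasmic over nuclear with its SE against gene span (log axis, kb) for cleavage and polyadenylation genes (circles) and deadenylase genes (squares), with the median (line) and middle 50% (grey) of tested protein-coding genes by decile of span. Values fall with span in both groups, with CNOT1 at 0.94 and 110 kb far above it and CNOT4 at -2.72 and 148 kb far below.

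Other genes around the tail were read from 4 lists, to be set beside the 39.6% of tested protein-coding genes called cytoplasmic and 33.7% called nuclear, or 25.2% and 49.2% with equal totals. Of 16 decapping and 5′ decay genes, which act after deadenylation, 10 were called cytoplasmic and 3 nuclear, with a median log2 fold change of 0.70. With equal totals 6 were cytoplasmic and 7 nuclear and the median was 0.04. The larger cytoplasmic count of this list therefore depended on the scale. Its median lay above that of tested protein-coding genes on both scales, which was 0.10 and, with equal totals, -0.56. PNRC1, a decapping activator, had the highest value of that list at 2.43 ± 0.12 (SE, adjusted p = 1.32e-17), and DCP1B, a decapping cofactor, the lowest at -0.78 ± 0.13 (adjusted p = 1.80e-06). XRN1, the 5′ exonuclease, was at -0.57 ± 0.10 (adjusted p = 1.07e-05). Of the 23 recruiters and adaptors of deadenylation, 5 were cytoplasmic and 14 nuclear, with a median of -0.78, and with equal totals 2 and 16, with a median of -1.44. NANOS1 led on the cytoplasmic side at 3.12 ± 0.25 (adjusted p = 1.75e-12), with 38.8 and 25.2 normalized counts in the nuclear libraries and 238 and 327 in the cytoplasmic ones. CPEB3, which binds cytoplasmic polyadenylation elements, was lowest at -3.34 ± 0.15 (adjusted p = 9.54e-19), followed by SAMD4A at -2.26 ± 0.11 (adjusted p = 3.28e-18). TNRC6A, a GW182 protein that binds CCR4-NOT, was the next lowest, with 4783 and 4675 normalized counts in the nuclear libraries and 1175 and 1191 in the cytoplasmic ones.

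The list of other 3′ end and tail-adding factors held 8 cytoplasmic and 10 nuclear genes among 21 tested, with a median of -0.38, and with equal totals 3 and 14, with a median of -1.04. The PP1 catalytic subunits PPP1CA and PPP1CC, which belong to the phosphatase module of CPSF, were higher in the cytoplasmic fraction by 2.97 ± 0.11 (SE, adjusted p = 8.21e-21) and 1.93 ± 0.10 (adjusted p = 3.42e-17). SSU72, a phosphatase of the same module, was at 1.19 ± 0.11 (adjusted p = 1.94e-11). On the nuclear side, the 3 lowest called genes abundant enough to be named were TENT2, TUT4 and TENT4B, at -2.17, -1.76 and -1.41. All are terminal nucleotidyltransferases, which extend RNA ends outside the cleavage reaction. These genes were picked by their values and do not stand for that class. TUT4 and TENT4B span 145 and 82.4 kb, and 69.8% of tested protein-coding genes over 80 kb were called nuclear. TENT2 spans 76.1 kb, and 26.6% of those of 15 to 80 kb were called nuclear. Of 6 other deadenylases, 3 were cytoplasmic, led by PDE12 at 1.19 and TOE1 at 1.13, and 3 were nuclear, among them NOCT at -0.40 and ANGEL1 at -0.37. ANGEL2 was called cytoplasmic at 0.58 but turned to -0.08 with equal totals.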

How the data were processed

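The authors aligned reads to hg38 with STAR, counted them with featureCounts 2.0.2 over exons and introns of an annotation derived from GENCODE release 34, from which stretches covered by several genes and readthrough transcripts were removed, and compared the fractions with DESeq2. The authors deposited 1 table with, per gene, a mean normalized count (a signal pooled over the 4 libraries), a log2 fold change and its standard error on the log2 scale, a statistic, a p-value and an adjusted p-value. The last 3 were not used, and none of the authors' comparison values is printed.

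Counts per library were solved from the deposited values. The mean is a sum of whole counts times 4 library steps, and where several whole-number sets fitted it, the set was kept whose refitted negative binomial model matched the deposited log2 fold change within 1e-09 with no other within 2e-09. Which steps were nuclear was read from the direction of the deposited fold change in genes with 1 count. Of 32478 genes with a mean above 0, 32408 (99.8%) were solved. For 3726 genes with a mean over 5 that the mean alone solved, the refit matched in all. In simulated tables every set given was right, also for 92 given of 100 genes with a mean of 5000 to 16000. The tolerance was narrowed after CNOT1 had come out unsettled, and its next set missed by 6.61e-09. The 70 unsolved genes, MALAT1 among them, were not tested, and their counts were estimated from the deposited mean and fold change. They held 7.57% and 7.69% of the total in the nuclear libraries and 30.2% and 29.4% in the cytoplasmic ones. The equal-totals scale uses totals that include these estimates.

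limma 3.58.1 (voom, fraction as the only term, size factors derived from the steps) was fitted to genes with at least 10 counts, with Benjamini-Hochberg adjustment. It replaced the edgeR test planned for recovered counts, which was not run because the file itself holds no counts. On simulated data with 21217 genes, 79% of 100 genes changed by 1 on the log2 scale and 16% of 100 changed by 0.5 were called, with 9 false calls beside them. Direction was checked only for a change of 1. No other genes were changed there, whereas 67.6% of the real tested genes were called. The adjustment was therefore stricter in the simulation, and its shares do not give the power of the real fit. The members and gene lists were chosen with earlier results of these data known. From each list of other genes, called genes with a mean over 50 and the 3 largest changes per direction could be named. Precision is limited by 2 libraries per fraction. Alternatives were scale, threshold, filter, tool and leaving out each library.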

Additional observations from a re-analysis of the deposited data

How the results depend on the processing

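With equal library totals, 4375 of all genes were called cytoplasmic in place of 7070 and 10982 nuclear in place of 7934, so the cytoplasmic share of calls fell from 47.1% to 28.5%. In cleavage and polyadenylation 6 members were then cytoplasmic and 11 nuclear, and in deadenylation 6 were cytoplasmic. The medians became -0.33 and -0.16. CPSF1 (-0.34), CPSF4 (-0.33), CPSF7 (-0.33), PAPOLA (-0.21), CNOT6L (-0.34) and CNOT3 (-0.51) changed sign. Centring on the protein-coding median gave a deadenylase median of 0.40. Bonferroni adjustment left 4560 cytoplasmic and 4197 nuclear genes, 7 and 4 cleavage and polyadenylation members and 4 nuclear deadenylase members. A fold threshold of 0.5 left 7 cytoplasmic cleavage and polyadenylation members. Without TOB1, TOB2, BTG1 and BTG2 the deadenylase median was -0.0836 and the difference of the medians -0.41. Means gave 0.23 for deadenylation and a difference of -0.056, and means weighted by precision 0.18, 0.12 and a difference of -0.0606. The cause was not tested. Leaving out a library gave 8 to 10 cytoplasmic and 6 to 7 nuclear cleavage and polyadenylation members, 9 and 6 to 7 deadenylase members, and a difference of 0.14 to 0.21. Of 35 called members, 24 kept call and direction in every alternative but Bonferroni adjustment and the fold threshold, and 20 in all. The alternatives limma-trend and no minimum count were chosen after seeing the data and ended 4 calls and 1 call. No paired analysis was possible because the replicate number of each library is not known from the table, and neither possible pairing was fitted. The other count tool, TMM, its expression filter and the replicate block were not run.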
